A study of Mus musculus with 3 samples.

Results

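The genes described here are 10 genes used to recognise resident macrophages, the phagocytes that settle in a tissue: Tyrobp, Lyz2, Cd14, Csf1r, Cx3cr1, Fcer1g, Aif1, C1qa, C1qb and Ptprc. They were followed through gene expression profiles of mouse renal corpuscles. Each member was read from the probe set whose platform annotation names that gene symbol and no other. All 10 were found that way, each with 1 probe set, among 19938 genes so named. The samples were 3 preparations of sieved corpuscle from adult male wild-type CD-1 mice, an outbred stock, aged 7 to 9 weeks, with about 2 kidneys pooled in each preparation. All 3 form 1 group with no treatment and no second condition, and no cell was sorted. Corpuscles were released with 0.5% collagenase A in 15 minutes at 37 °C and passed through filters of 100, 70 and 40 µm. In such bulk RNA, fewer cells of a type and less RNA per cell cannot be told apart.

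Macrophages of the kidney lie mainly around the tubules and vessels, and the normal glomerulus is known to hold few. They take up debris and immune complexes, sense bacterial products and depend on a growth factor receptor encoded by Csf1r for survival. Of the members, Csf1r and Cx3cr1 are receptors for growth factor and chemokine. Tyrobp and Fcer1g encode short membrane adaptors that carry activation motifs, known as ITAMs, for receptors that have none. Cd14 encodes a lipopolysaccharide coreceptor, Lyz2 the lysozyme of myeloid cells, C1qa and C1qb chains of the first complement component, Aif1 a calcium-binding actin regulator of macrophages, and Ptprc the phosphatase CD45 of nearly all blood leukocytes. Lyz2 is also used by neutrophils and Fcer1g by mast cells and natural killer cells, so the list marks myeloid and other leukocytes as well as macrophages.

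Sequences upstream of the start site were taken from RefSeq (GRCm38.p6), which held 6 of the 10 members in the promoter table used. They were searched because PU.1, the Ets factor encoded by Spi1 that drives many myeloid genes, binds purine-rich DNA. The 250 bases before the start were read on both strands for GAGGAA, a purine-rich core of such sites. At least 1 match was found in 3 of the 6 genes, Aif1, C1qb and Ptprc. By promoter it was 3 of 7 for the members and 23.25% of all 32851 in the table. The longer GAGGAAGT, which contains GAGGAA, was in none of the 6 and in 2.44% of all promoters. A match is only a run of letters. Other purine-rich sequences were not searched, so a gene without a match may still hold one. The matches are printed with their flanks, capitals marking GAGGAA or its reverse complement.
Aif1, chr17:35176053-35176071, minus strand, match 7 to 2 bases before the start: ataggcacccagTTCCTCc
C1qb, chr4:136886213-136886242, minus strand, match 30 to 25 bases before the start: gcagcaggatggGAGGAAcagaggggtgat
Ptprc, chr1:138175446-138175475, minus strand, match 158 to 153 bases before the start: tgttttcctttaGAGGAAaattgagacgaa

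Ptprc has a second entry in the table, with a start further along, and that stretch held no match. Of the 3 genes with a match C1qb was not detected on the arrays, while Cx3cr1, Fcer1g and Lyz2 had no match and were detected.

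Most of the macrophage genes were detected, some of them only a little above background. Background was set on each array from 1212 probe sets of olfactory or vomeronasal receptors, genes of sensory neurons, as the 95th percentile of their signals. It lay at 6.90, 6.96 and 6.92 log2 on replicates 1, 2 and 3. A gene was called detected if limma, testing one-sided whether it exceeded this background, gave a Benjamini-Hochberg adjusted p under 0.05 over all genes. By this rule 8 of the 10 members were detected, beside 58.9% of all 19938 genes. Only Tyrobp and Lyz2 passed a linear signal of 500 on some arrays, and none of the 10 passed it on all 3. The share of all genes that passed it was not counted. The lowest gene called lay 0.054 log2 above background and the highest gene not called 0.053 above it. The call is thus in effect a line close above background. A probe set has its own affinity, so signals of different genes are not compared with each other here, only with background and between arrays.

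**Figure D1:**
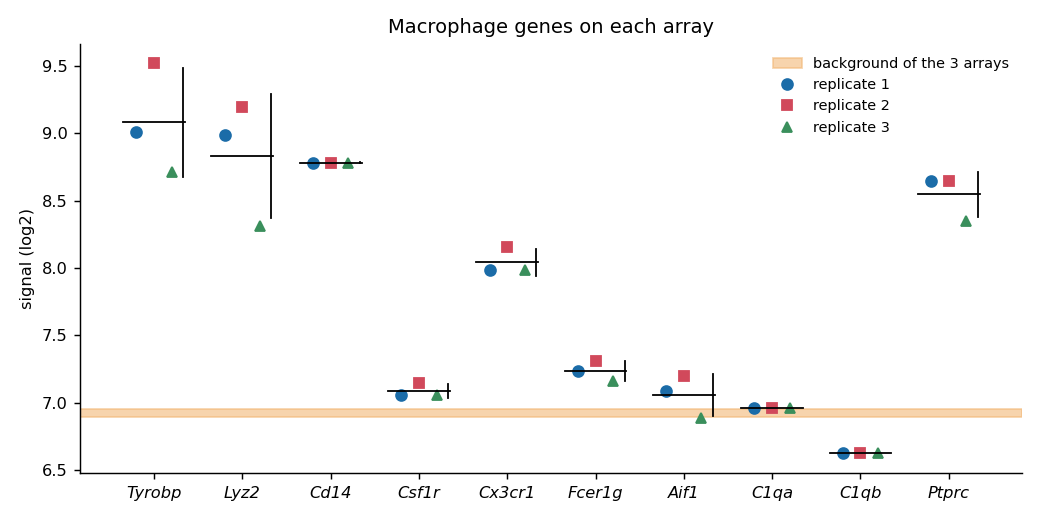
log2 signal (vertical axis) of the 10 macrophage genes (horizontal axis) on each of the 3 arrays; black lines give the mean and SD (n = 3) and the orange band spans the background of the arrays, 6.90 to 6.96. Tyrobp, Lyz2, Cd14, Ptprc and Cx3cr1 lie at least 1 log2 above background on every array, whereas C1qa lies in the band or at its upper edge and C1qb below it.

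Of the membrane receptors and adaptors, Tyrobp gave 9.01, 9.52 and 8.71 log2 on the arrays of replicates 1, 2 and 3. As linear signals these were 516, 732 and 420. Its mean of 9.08 ± 0.41 log2 (SD, n = 3) lay 2.16 above background, a 4.46-fold signal over that level. Replicate 2 was the high array and replicate 3 the low one, with the highest 1.74-fold over the lowest. Fcer1g, the adaptor of Fc receptors, gave 7.23, 7.31 and 7.16 log2, a mean of 7.23 ± 0.07 that lay 0.31 above background. The order of the arrays was that of Tyrobp, but the highest was only 1.11-fold over the lowest.

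Cd14 held 8.78 log2 on each array (8.78 ± 0.002, n = 3), which is 1.86 above background. Its linear signals were 439, 440 and 440, so that of the detected members it was the least spread. Cx3cr1, the receptor for fractalkine, gave 7.98, 8.16 and 7.98 log2 (8.04 ± 0.10), 1.12 above background, with replicate 2 the highest and the others equal. Csf1r gave 7.05, 7.15 and 7.05 log2 (7.09 ± 0.05), only 0.16 above background, again with replicate 2 the highest. Its linear signals, 133 and 142, were 1.12-fold over background on average.

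Ptprc gave 8.64, 8.64 and 8.35 log2 (8.55 ± 0.17, n = 3), 1.62 above background. Replicate 3 was the low array and the others were equal. Among the cytoplasmic and secreted products, Lyz2 gave 8.98, 9.20 and 8.31 log2, which on the linear scale is 506, 587 and 318. Its mean of 8.83 ± 0.46 lay 1.91 above background. Its highest array was 1.84-fold over its lowest, the widest range of the 10. Aif1 gave 7.09, 7.20 and 6.89 log2 (7.06 ± 0.16), 0.13 above background on average. It was above background on 2 of the 3 arrays and 0.03 below it on replicate 3, yet it was called. Its standard error in the test was 0.029, which eBayes set mainly from genes of like level, while the SD of its own differences from background was 0.14. Over all genes 54.2% held the same value on all 3 arrays. Once background was subtracted, such a gene had an SD of 0.029, from the background levels alone. The standard error is therefore not purely a spread between preparations, and how far ties set it was not tested.

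None of the complement chains was called. C1qa held 6.96 log2 on every array, 0.03 above background, and was not called. C1qb held 6.62 on every array, 0.30 below background. C1qc, whose gene lies between those of C1qa and C1qb in the RefSeq order of mouse genes, was not called either, at 6.67 on every array. All 3 chains are needed to build C1q, and tissue macrophages are known as its main source. No chain of it was called, although C1qa lay slightly above background on each array and was called without replicate 2, at 0.051 above it. Against the median of the receptors, a lower line, C1qa and C1qb were both called. The SD of 0 of these genes is not an error of 0: 2 of the 10 members held the same value on all 3 arrays, as did 54.2% of all genes and 44.0% of detected genes.

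Other macrophage genes were detected in a smaller share. Of 28 fixed, 27 had a value and 13 were detected, fewer than 58.9%, the share over all genes. The median of the 27 lay 0.03 below background, and that of the 10 members 0.72 above it. Those called included Mrc1, the mannose receptor, at 10.27 ± 0.12 log2 (n = 3), the protease gene Ctss at 9.43 ± 0.48, the NADPH oxidase gene Cybb at 8.75 ± 0.41 and Lgals3 at 7.99. Mrc1 is also used by some endothelial cells and Lgals3 by epithelial cells. The endosomal marker Cd68 held 7.73. Adgre1, which encodes the F4/80 antigen by which mouse macrophages are most often recognised, held 5.84 on every array, 1.08 below background. Itgam, which encodes CD11b, held 6.03, and the scavenger receptor gene Cd163 held 5.75. Vsig4 and Ms4a7, at 4.62 and 5.54, were also not called, nor was Spi1 at 6.43. Several defining markers of resident macrophages were thus not measured above background, and the 10 genes are called macrophage genes here for their use as markers.

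**Figure D2:**
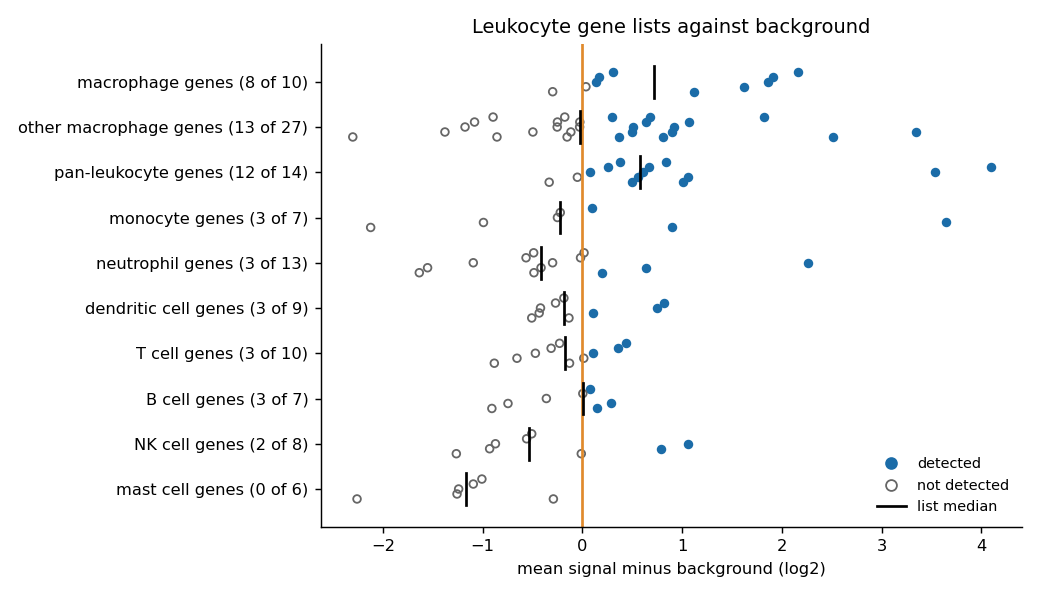
Mean signal minus background in log2 (horizontal axis) of each gene in 10 leukocyte gene lists (rows), with detected and fixed-and-measured gene numbers in brackets; filled points were detected, open points were not. A black bar gives the median of a list and the orange line the background; 8 of the 10 members and 12 of 14 pan-leukocyte genes were detected, and 0 of 6 mast cell genes, all left of the line.

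Of genes shared by leukocytes 12 of 14 with values were detected, beside 58.9% of all genes. They included the tetraspanin gene Cd53 at 11.01 ± 0.22 log2 (n = 3), Arhgdib at 10.46 ± 0.02, Hcls1 at 7.98 ± 0.09 and Lcp1 at 7.93 ± 0.11, while Dock2 and Cd48 were not called. Arhgdib is also used by endothelial cells. The integrin chain gene Itgb2 was called, at 7.42, although its partner Itgam was not. Monocyte genes were called in 3 of 7 cases, Plac8 at 10.57 ± 0.36, Spn at 7.82 ± 0.07 and Treml4 at 7.02, and Ccr2, F13a1 and Vcan were not. Of 13 neutrophil genes 3 were called, S100a9 at 9.18 ± 0.02, S100a8 at 7.56 ± 0.23 and Csf3r at 7.12 ± 0.02, and Ly6g, Ngp and Mmp8 were the lowest of the list.

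Over neutrophil, dendritic, T, B, NK and mast cell lists together, 14 of 53 genes were detected, or 26.4%, beside 58.9% of all genes. Dendritic cell genes were called in 3 of 9 cases, Zbtb46 at 7.74 ± 0.08 log2 (n = 3), Ccr7 at 7.67 and Clec9a at 7.02 ± 0.23, and Flt3, Itgax and Xcr1 were not. The T cell genes called were Cd3e at 7.36, Cd2 at 7.28 ± 0.18 and Cd247 at 7.03, while Il7r, Cd4 and Cd3d were not. Of the B cell genes Cd79b at 7.21 ± 0.23, Blk at 7.06 ± 0.01 and Pax5 at 7.00 were called, and Fcer2a, Cd79a and Ms4a1 were not. Gzma at 7.98 ± 0.18 and Prf1 at 7.71 were the NK genes called, and Klrd1, Eomes and Ncr1 were not. All 6 mast cell genes lay below background, the nearest being Tpsb2 at 6.63, so that none was called. Platelet genes were called in 3 of 4 cases, Ppbp at 8.62 ± 0.05, Treml1 at 7.75 and Itga2b at 7.27, with Gp9 at 6.90 not called. Of 4 erythroid genes with a value Alas2 and Slc4a1 were called, at 7.68 ± 0.06 and 7.14, and Epb42 and Klf1 were not.

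The partners of the members were next examined by role. Both ligands of the CSF1 receptor were called, Csf1 at 9.24 log2 on every array and Il34 at 8.08. Of 10 genes of that pathway 7 were detected, beside 58.9% of all genes. Those called included the ubiquitin ligase gene Cbl at 8.96 and the adaptor gene Grb2 at 8.80 ± 0.03 (n = 3). Both are used in most cells. Runx1, Spi1 and Dok1 were not called. Fractalkine, the ligand of Cx3cr1, was called too: Cx3cl1 held 8.16 on every array. Adam17 and Adam10, the proteases that shed it, were at 9.82 ± 0.02 and 9.70 ± 0.08.

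Receptors that signal through Tyrobp or Fcer1g were mostly at background. Of 15 adaptor partners with a value 2 were detected, beside 58.9% of all genes. They were Trem2, a lipid-sensing receptor of macrophages, at 7.43 ± 0.04 log2 (n = 3), and Hcst at 7.57. Hcst encodes an adaptor and is not such a receptor, so of the receptors only Trem2 was called. Hcst lies beside Tyrobp in the genome, and its arrays 2 and 3 were 0.002 log2 apart where those of Tyrobp were 0.80 apart. The Fc receptor genes Fcgr1, Fcgr3 and Fcgr4 were not called, at 6.89, 6.67 and 6.16, nor were Trem1, Clec5a or Klrk1. A list of ITAM signalling genes was fixed to include inhibitors. Of its 13 genes with a value 5 were called, or 38.5%, beside 58.9% of all genes. Of the 5, 4 are known as inhibitory, Sirpa at 10.30 ± 0.01, Inpp5d at 8.15 ± 0.06, Ptpn6 at 7.44 and Pirb at 7.29. They encode SIRP-alpha, a lipid phosphatase, a tyrosine phosphatase and a receptor. Plcg2, at 7.20, was the other. Sirpa is also used by cells other than leukocytes. The kinase genes Syk and Btk, at 6.75 and 5.88, were not called, nor were Fcgr2b and Blnk.

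**Figure D3:**
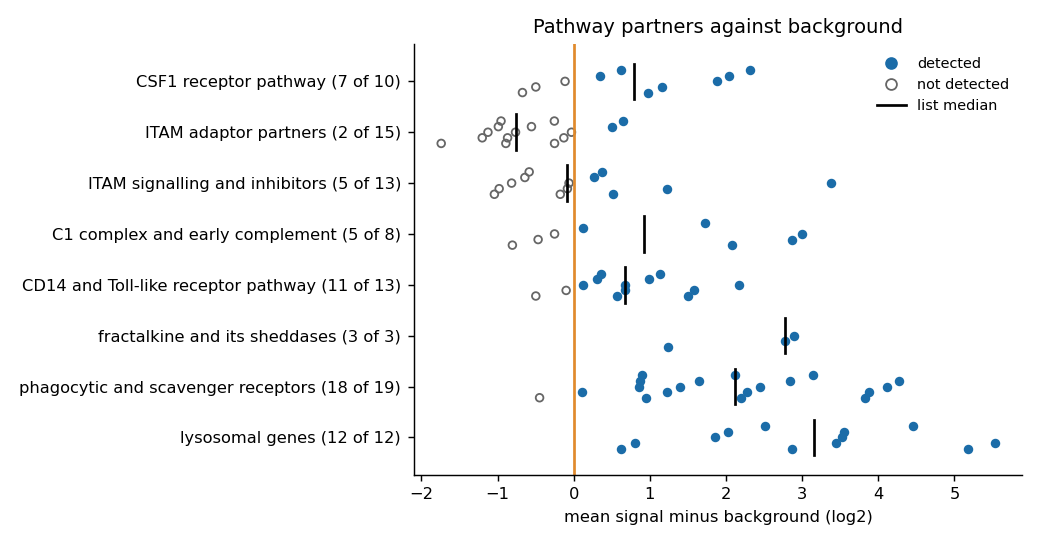
Mean signal minus background in log2 (horizontal axis) of the partner genes of the macrophage genes in 8 lists (rows), with detected and measured gene numbers in brackets; filled points were detected, open points were not. A black bar gives the median of a list and the orange line the background. Of the ITAM adaptor partners 13 of 15 lie left of the line, whereas 18 of 19 phagocytic receptor genes and all 12 lysosomal genes lie right of it.

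Around Cd14, 11 of 13 genes of the Toll-like receptor pathway were detected, beside 58.9% of all genes. That count fell to 5 with background at the 99th percentile of the olfactory and vomeronasal receptors. Tlr4, the receptor that Cd14 serves, was at 9.10 ± 0.05 log2 (n = 3), Ly96, which encodes its MD-2 chain, at 8.51, Irak1 at 8.42 and Myd88 at 8.06 ± 0.04. The serum carrier gene Lbp, at 6.82, and Tlr1, at 6.58, 6.58 and 6.12, were not called. Close to the 58.9% of all genes, 5 of 8 genes of the C1 group (62.5%) were called. They were the C1 inhibitor gene Serping1 at 9.92 ± 0.14, C1qbp at 9.80 ± 0.03, Cd93 at 9.00 ± 0.02, Lrp1 at 8.65 and the protease gene C1ra at 7.05 ± 0.09. C2 and C4b were not called, nor was C1qc as given above.

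Phagocytic and scavenger receptor genes were detected in 18 of 19 cases, a share above that of all genes, but many are genes of resident kidney cells. Mertk, a receptor kinase for the uptake of dying cells, held 11.19 log2 on every array. Its ligand gene Pros1 held 11.04, and the integrin chain genes Itgb5 and Itgav were at 10.80 ± 0.23 and 10.75 ± 0.03 (n = 3). Marco, a scavenger receptor of some macrophages, was not called, at 6.48, while Msr1 was, at 7.82 ± 0.20. All 12 lysosomal genes with a value were called, with Cst3 at 12.45 ± 0.05, Ctsl at 12.11 ± 0.17, Lamp2 at 11.37 and Ctsb at 10.48 ± 0.03. Most of that list is used in every cell.

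Lyz1, the neighbour and close copy of Lyz2, was also called. It gave 7.66, 7.80 and 7.16 log2 (7.54 ± 0.34, n = 3), with replicate 2 the highest and replicate 3 the lowest, as for Lyz2. The transcripts are alike enough that probes may take up both, so the pair is uncertain as separate measurements. The upstream stretches of both genes are alike too. Over the last 100 bases before the start, 92 are the same and 8 differ, given in capitals. Over 250 bases, with gaps allowed, 79.4% of aligned positions were identical.
Lyz2, chr10:117282273-117282372, minus strand: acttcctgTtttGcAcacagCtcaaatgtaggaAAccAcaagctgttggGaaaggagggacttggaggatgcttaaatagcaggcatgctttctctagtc
Lyz1, chr10:117292869-117292968, minus strand: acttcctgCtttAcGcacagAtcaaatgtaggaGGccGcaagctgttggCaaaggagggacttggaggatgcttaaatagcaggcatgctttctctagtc

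The 3 arrays were then compared gene by gene. Replicate 2 was nowhere below another array among the 10 members, and it was strictly the highest for 6, Tyrobp, Lyz2, Cx3cr1, Csf1r, Fcer1g and Aif1, where 8.38% of all genes had that order. Replicate 3 was strictly the lowest for 5, Tyrobp, Lyz2, Ptprc, Fcer1g and Aif1, beside 11.5% of all genes. Among detected genes those shares were 8.74% and 16.0%. With ties counted, replicate 2 was at or above the others for 10 of 10 members, 71.2% of all genes and 61.9% of detected genes. Signals differed between all 3 arrays for 4 of 10 members, 18.3% of all genes and 25.6% of detected genes. These are descriptions of 3 preparations. With 1 group no test of a difference between arrays can be made, and the members are not replicates of each other.

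More than 1.2-fold apart between replicates 2 and 3, a size chosen after the values were seen, were 4 members, and replicate 2 was the higher in each: Lyz2 by 0.88 log2, Tyrobp by 0.80, Aif1 by 0.31 and Ptprc by 0.29. The signal of Aif1 on replicate 3 was not above background, so the size of its difference is uncertain. Over all genes 2.11% were higher on replicate 2 by that much and 1.33% on replicate 3, and over detected genes 2.41% and 1.56%. More than 1.5-fold higher on replicate 2 were 2 members, Lyz2 and Tyrobp, beside 0.547% of all genes and 0.672% of detected genes. No member passed 2-fold, which 0.186% of all genes and 0.264% of detected genes did in that direction. Among detected genes the split of differences over 1.2-fold was 283 higher on replicate 2 to 183 on replicate 3, and after quantile normalization it was 225 to 222. The same number of members, 4, passed after quantile normalization and after centring the arrays on their medians. Cd14, C1qa and C1qb, level between replicates 2 and 3 as deposited, then lay 0.02 to 0.04 lower on replicate 2.

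**Figure D4:**
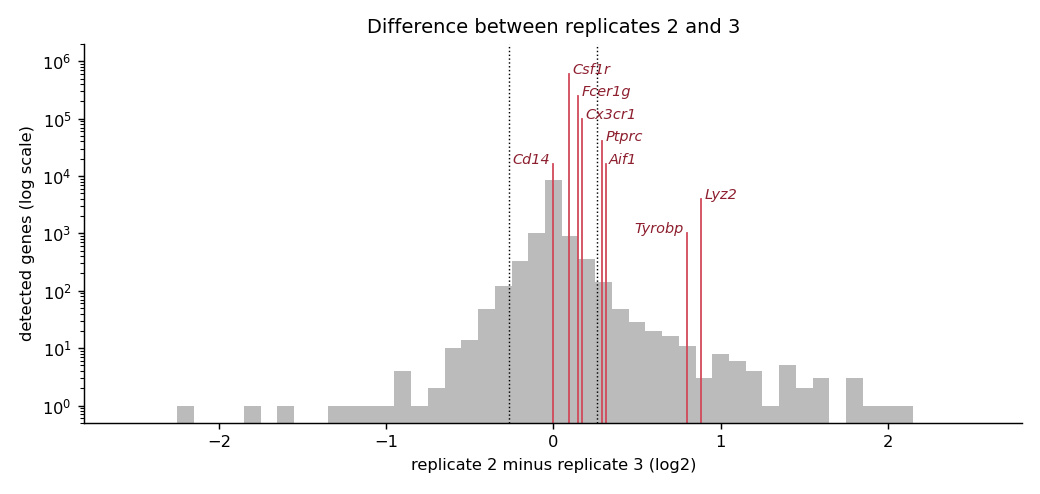
Number of detected genes, on a log scale (vertical axis), by the log2 difference of replicate 2 minus replicate 3 (horizontal axis); red lines mark the 8 detected macrophage genes, their heights only spacing the labels, and dotted lines a 1.2-fold difference either way. Lyz2 and Tyrobp, at 0.88 and 0.80, lie in the right tail, Aif1 and Ptprc just past the dotted line, and Cd14 at 0.

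By the SD over the arrays, 0.545% of detected genes spread more than Lyz2 and 0.766% more than Tyrobp. For Ptprc and Aif1 the shares were 6.02% and 6.96%, for Cx3cr1 15.2%, for Fcer1g 21.9%, for Csf1r 28.7% and for Cd14 55.2%. The members therefore did not spread alike. The median over the 10 of the deviation from the 3-array mean was -0.0009, 0.087 and -0.066 log2 on replicates 1, 2 and 3, where the median of all detected genes was 0 on each.

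Several other myeloid genes showed the order of Tyrobp and Lyz2. Ctss gave 9.41, 9.92 and 8.96 log2, Cybb 8.64, 9.20 and 8.40, and Ms4a6c 7.37, 8.18 and 7.12. Plac8 gave 10.32, 10.98 and 10.39, also highest on replicate 2 but not lowest on replicate 3. Mpeg1, a pore-forming protein gene of macrophages, fell in another order, 8.14, 7.89 and 7.49, as did the leukocyte antigen gene Cd52 with 7.87, 7.52 and 7.21. Both were highest on replicate 1 and lowest on replicate 3. Pf4, with 7.43, 7.20 and 7.62, went the other way. Of the 27 other macrophage genes 5 were over 1.2-fold higher on replicate 2 than on replicate 3, beside 2.11% of all genes. By that much 1 was lower, beside 1.33% of all genes. Level between these arrays were 19, among them all 14 that were not detected, which lay below background. Of the 53 genes of neutrophils, dendritic, T, B, NK and mast cells, 1 was higher by that much, Gzma, and 0 were lower. Only 14 of the 53 were detected, so most could show little of a difference.

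Interferon-stimulated genes were also high on replicate 2, and by more. All 9 with a value were highest on replicate 2 and over 1.5-fold higher there than on replicate 3, with a median difference of 1.40 log2. Ifit3 gave 10.63, 11.93 and 10.34, and Oasl2 gave 8.77, 9.88 and 8.47. Summed over the 9 genes, linear signals were 4130, 9840 and 3598. Over the 10 macrophage genes the sums were 2756, 3115 and 2375.5, and over the 27 other macrophage genes 5596, 5975 and 5035. Background was not subtracted from these sums, and they include genes not detected. They therefore do not give the relative size of the array differences of the lists. On replicate 1 the lists differed, with a mean deviation over detected genes of -0.33 log2 for interferon-stimulated and 0.015 for macrophage genes. Replicate 3 was lowest for 7 of the 9, whereas Irf7 and Ifi27l2a were lowest on replicate 1. The part of the interferon response in the array differences of the macrophage genes was not tested.

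**Figure D5:**
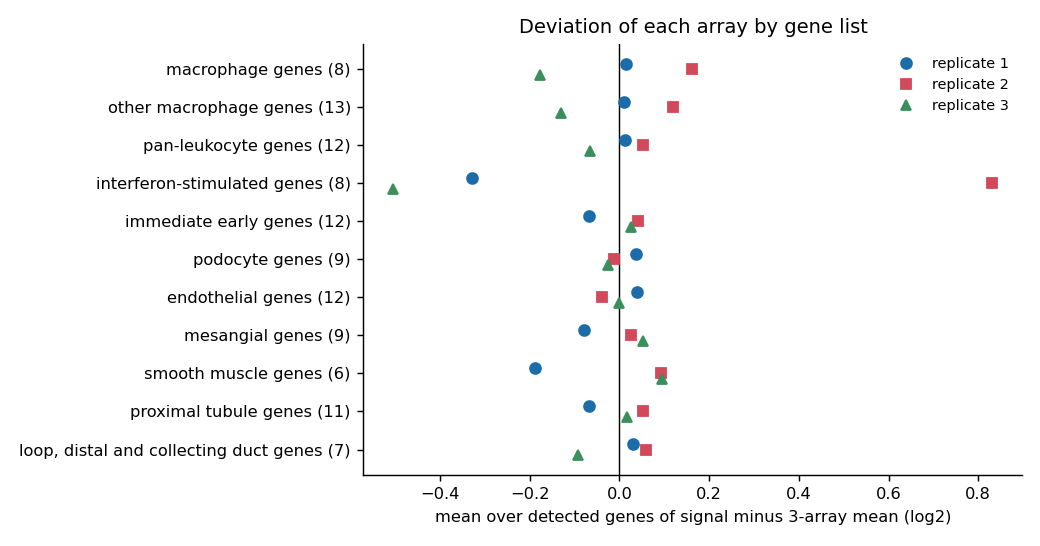
Mean over the detected genes in a list (rows, with their number in brackets) of the deviation in log2 from the mean of the arrays (horizontal axis), for replicates 1, 2 and 3. Macrophage genes stand at 0.16 on replicate 2 and -0.18 on replicate 3, and interferon-stimulated genes at 0.83 on replicate 2.

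Genes of podocytes and endothelium, the main cells of the tuft, had smaller mean deviations than the macrophage genes on replicates 2 and 3 and larger ones on replicate 1, and the differences were not tested. Over detected genes the mean deviation of macrophage genes was 0.015, 0.16 and -0.18 log2 on replicates 1, 2 and 3. For podocyte genes it was 0.037, -0.011 and -0.026, and for endothelial genes 0.039, -0.038 and -0.0002. On replicate 2 the macrophage mean rested mostly on Tyrobp and Lyz2, which deviated by 0.44 and 0.37. The medians on replicates 2 and 3 were 0.11 and -0.12 for macrophage genes and 0 and -0.006 for podocyte genes. For endothelial genes they were -0.014 and -0.004. For proximal tubule genes the mean was -0.068, 0.052 and 0.016, and smooth muscle genes stood further out, at -0.19, 0.093 and 0.096. Genes of later tubule segments, from the loop to the collecting duct, stood at 0.031, 0.060 and -0.092, in the array order of the macrophage genes. The genes of that list went apart on replicate 3: Slc12a3 gave 8.53, 8.51 and 7.95, but Umod gave 8.77, 9.18 and 9.78. The part of tubule carried over in the differences was not tested.

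The genes whose deviations lay nearest to a mean pattern of 4 members were sought among all detected genes. The pattern was the mean deviation of the 4 members with 3 different signals, Tyrobp, Lyz2, Fcer1g and Aif1, which was 0.027, 0.25 and -0.28 log2 on replicates 1, 2 and 3. By Euclidean distance over the 3 arrays the nearest were Plk2 at 0.018, A330023F24Rik at 0.024, Aim2 at 0.034, Setdb2 at 0.036 and Snora44 at 0.037. Of the members themselves Aif1 lay nearest, at 0.16. Tyrobp, Fcer1g and Lyz2, also in the pattern, lay at 0.22, 0.28 and 0.29. C1qa and C1qb, level on all arrays, lay at 0.38. The pattern is thus an average that no member matched closely, and the nearest genes are near to it rather than to single members. Aim2 encodes a sensor of cytosolic DNA, and it gave 7.96, 8.19 and 7.61. Plk2, a kinase gene of wide use, gave 9.34, 9.59 and 9.05. The likeness is over 3 arrays only, and the pattern includes Aif1, which was below background on replicate 3. The nearest were picked from 11752 detected genes, and how near genes would lie to another pattern was not tested. Interferon-stimulated genes were also highest on replicate 2. Whether the nearest genes follow those or the macrophage genes was not tested.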

How the data were processed

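Total RNA of 3 sieved renal corpuscle preparations, amplified in 1 round with a NuGEN Pico kit and labelled with biotin, was hybridised to Affymetrix mouse gene arrays. The authors deposited log2 signals for 35557 probe sets. Affymetrix Expression Console is named, per the labels, in the submitters' notes, and the authors describe RMA16 summarization in GeneSpring for their own screens. Whether that made the deposited table is not stated. This table holds 0 columns of other samples, and no further normalization was applied. The platform annotation names 1 symbol for 21789 probe sets, several for 1621 and none here for 12147. Where several named a gene, the probe set of highest mean stood for it. Array medians were 7.11, 7.11 and 7.09, and the number of arrays limits the precision.

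Detection was tested with limma 3.58.1 in R 4.3.3 (lmFit with an intercept, eBayes with a trend on level) on 19938 genes. The per-array background was subtracted first. A run on simulated data held no tied values and no unraised gene at or just below background. It therefore cannot show how often such genes are called. Of 1196 receptor genes 54 were themselves called. Tied values can make the p of a single gene too small, and none is printed. Whether pools differed in litter or day is not labelled, and their spread may be technical. The members, lists and thresholds were chosen with earlier results of these data known. Named are all members, Lyz1, C1qc, Adgre1 and Itgam. Of each immune and partner list, up to 4 detected genes of highest level and up to 3 not detected are named. List genes with an SD over 0.25 and the 5 genes nearest to the mean pattern of 4 members are named too. Lists of neighbouring cell types are given mainly as summaries, and other names were chosen after their values were seen. Members of lists without a 1-symbol probe set were not analysed here. The motif matches were found by exact search, and the paired stretches were aligned globally with Biopython 1.88.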

Additional observations from a re-analysis of the deposited data

How the results depend on the processing

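No paired analysis was possible because there is 1 group and nothing to pair. The count of macrophage genes detected, 8, was 5 with background at the 99th percentile of the receptors, 5 at a fixed signal of 150 and 10 with the median of the receptors, where C1qa and C1qb lay 1.59 and 1.25 log2 above the line and were called. C1qa was also called without replicate 2. The count of other macrophage genes, 13, was 7 at the 99th percentile and 26 with the median of the receptors, and the receptor median gave 18031 genes detected in all. Pan-leukocyte genes, 12 as reported, numbered 5 at the 99th percentile, neutrophil genes 1 where 3 were reported, and no T or B cell gene was then called by limma. The genes around Cd14, 11 as reported, numbered 5 at the 99th percentile, and the ITAM adaptor partners, 2 as reported, numbered 14 with the receptor median. These settings move the line itself, and at least the fixed signal also changed the test. The fixed signal lay below the 99th percentile, yet 5 interferon-stimulated genes were called against it and 8 at the 99th percentile. Counts against the fixed signal therefore do not depend on the line alone. Csf1r lay at -0.47 and -0.14 log2 against the 99th percentile and the fixed signal, and Aif1 at -0.50 and -0.17. Fcer1g lay at -0.33 against the 99th percentile and was no longer called against the fixed signal, 0.005 above it. Tyrobp, Lyz2, Cd14, Ptprc and Cx3cr1 were called under all 11 alternatives. Leaving out each replicate gave 8 to 9 macrophage genes, 13 other macrophage genes each time and 11424 to 11869 genes in all. The median deviation of the macrophage genes ran from -0.043 to 0.018 on replicate 1, from 0.043 to 0.081 on replicate 2 and from -0.081 to -0.018 on replicate 3 when another replicate was left out. Leaving receptor genes out of the adjustment was chosen after the data were seen, and it changed no call of a member.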
